A study of Mus musculus with 19 samples.

Results

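The 38 genes described here encode glutamate receptors, some of them presynaptic such as Grm7, and proteins of the excitatory postsynapse. They are the AMPA receptor subunits Gria1 to Gria4, 6 NMDA receptor subunits, 5 kainate receptor subunits, 6 metabotropic glutamate receptors, the Dlg, Shank, Homer and Dlgap scaffolds, both main subunits of the kinase CaMKII, and neurogranin. They were listed by symbol and found by Ensembl gene ID in a table of gene counts, and all 38 were present among the 20655 gene IDs. The samples were 19 left hippocampi taken at an age of 4 months, each from a different mouse and sequenced as 1 bulk RNA library. Every animal was hemizygous for 5xFAD, a set of transgenes with human amyloid precursor protein and presenilin carrying familial Alzheimer's disease mutations, driven in neurons by the Thy1 promoter. The 5xFAD group comprised 5 females and 5 males. The knock-in group comprised 4 females and 5 males that were also homozygous for an allele named CLUh2kbKI at the clusterin gene, whose sequence change is not given in the sources used here. Animals without the 5xFAD transgenes are not analysed here, so the comparisons are between a knock-in and its absence within the amyloid model. The title of the series names astrocyte reactivity and synaptic density. The comparisons below ask whether transcripts of these receptors and postsynaptic proteins differed with the knock-in in either sex. With 1 library per animal, the p-values set each difference against the spread between these animals, which includes any differences between their libraries. In the main tests that spread is estimated over the 4 groups together and draws on other genes.

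Glutamate released onto a dendritic spine opens AMPA receptors, which carry most of the fast current, and NMDA receptors, which admit calcium and start the signalling that strengthens or weakens a synapse. Kainate receptors act on both sides of the synapse and are prominent at the mossy fibre inputs to CA3 pyramidal cells, while metabotropic receptors signal through G proteins. Under the membrane, PSD-95 and its relatives (Dlg genes) hold the receptors, the SAPAP proteins (Dlgap genes) join them to the Shank proteins, and Homer proteins join Shank to group I metabotropic receptors. CaMKII responds to calcium entering through NMDA receptors, and neurogranin sets how much calmodulin is free to bind it. Loss of synapses is a known feature of Alzheimer's disease and of amyloid mouse models.

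Promoter sequences are shown for Grik2, the only one of these genes that passed the edgeR test for a genotype difference, and for Homer1, whose level varied with immediate early genes from animal to animal. Each window runs from 250 bases before to 50 bases after a transcription start in RefSeq on GRCm38.p6, and all are protein-coding genes. The capitals mark TGACG, or CGTCA for the same letters on the other strand, the core letters of the cAMP response element that activity-dependent promoters often carry. The Grik2 window is chr10:49788705-49789004 on the minus strand, and the Homer1 windows are chr13:93303507-93303806 and chr13:93307784-93308083 on the plus strand.
Grik2: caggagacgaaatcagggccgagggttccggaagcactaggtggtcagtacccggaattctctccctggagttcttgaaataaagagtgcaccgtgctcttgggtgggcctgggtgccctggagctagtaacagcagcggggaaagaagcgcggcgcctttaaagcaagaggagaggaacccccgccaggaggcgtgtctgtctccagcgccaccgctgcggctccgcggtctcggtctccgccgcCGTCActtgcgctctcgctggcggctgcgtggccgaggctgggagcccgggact
Homer1, first start: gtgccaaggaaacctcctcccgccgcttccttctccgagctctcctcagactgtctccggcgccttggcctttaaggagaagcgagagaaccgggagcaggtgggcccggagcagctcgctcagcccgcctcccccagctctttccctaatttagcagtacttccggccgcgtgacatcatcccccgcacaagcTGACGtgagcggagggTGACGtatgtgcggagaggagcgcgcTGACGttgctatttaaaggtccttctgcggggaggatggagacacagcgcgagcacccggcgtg
Homer1, second start: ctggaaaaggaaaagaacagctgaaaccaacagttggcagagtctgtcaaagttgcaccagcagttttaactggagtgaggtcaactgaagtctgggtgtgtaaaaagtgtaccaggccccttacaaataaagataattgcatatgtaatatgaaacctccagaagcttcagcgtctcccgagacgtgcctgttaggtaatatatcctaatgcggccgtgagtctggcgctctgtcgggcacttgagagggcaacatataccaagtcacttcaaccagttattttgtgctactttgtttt
The Grik2 window holds 1 match, the first Homer1 window holds 3 and the second holds 0. Among 32851 promoter windows of this length, 20.8% hold at least 1 match on either strand and 1.03% hold at least 3. The table had 40 windows for 26 of the 38 genes, and 7 of the 40 (17.5%) hold at least 1 match. A match describes the letters only.

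Depth was 17.28M to 25.2M counts per library (19.7M ± 1.74M, SD, n = 19). Of 12 pan-neuronal and 8 dentate granule cell markers, all were measured and none lay under 1 CPM in all libraries of a group. Clu itself, outside these 38 genes, had medians of 1257 CPM in knock-in females, 1026 CPM in 5xFAD females, 1064 CPM in knock-in males and 979 CPM in 5xFAD males. The labels give no batch, and the genotypes hold separate runs of animal and library numbers, so genotype and order of processing cannot be told apart. The sequencing platforms named for the series are not assigned to libraries, so platform and genotype cannot be told apart either. A further measure stands beside the results. The mean of 8 nuclear long noncoding RNAs (Meg3, Mirg, Rian, Miat, Malat1, Neat1, Kcnq1ot1 and Snhg11) was 6.16 to 7.08 log2 CPM in knock-in females and 8.0 to 8.38 in 5xFAD females, with no overlap. The males overlapped, at 7.12 to 8.50 in knock-in animals and 6.41 to 8.25 in 5xFAD animals.

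Neurogranin and Camk2a led the 38 genes in level per kb of exon and the group III metabotropic receptors Grm4 and Grm8 were near the bottom. Levels are given in CPM, counts scaled to a common library size with a correction for composition. Where genes are compared with each other, CPM is given per kb of exon. That length joins all annotated exons of a gene, so the order also depends on the annotation. By CPM alone Camk2a (3228) was above Nrgn (1220), Dlg4 (712) above Dlgap3 (351) and Homer1 (133) above Homer3 (52.6). Neurogranin was highest at 840 CPM per kb (562 to 1315 over the 19 animals), followed by Camk2a at 432 (345 to 576). The AMPA subunit Gria1 came next at 133, Camk2b was at 111, the scaffold Dlgap3 at 77.6, Dlg4 (PSD-95) at 53.7 and the obligatory NMDA subunit Grin1 at 52.4. Grik5, the kainate subunit KA2, stood at 50.02 and Gria2, which makes AMPA receptors impermeable to calcium, at 44.3. The lowest were Grm4 at 3.08, the kainate subunit Grik1 at 1.69 and Grm8, a presynaptic receptor, at 0.83 CPM per kb. Of the 37 pairs of neighbours in this order, 12 differed by more than the larger SD of the pair over animals. Each of the first 5 genes was set apart from the next in this way, whereas Dlg4, Grin1, Grik5, Gria2 and Shank1 followed within 1 SD of each other from neighbour to neighbour. All 38 genes passed the filter on low counts, and the lowest count of any of them in any library was 114, for Grm8.

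**Figure D1:**
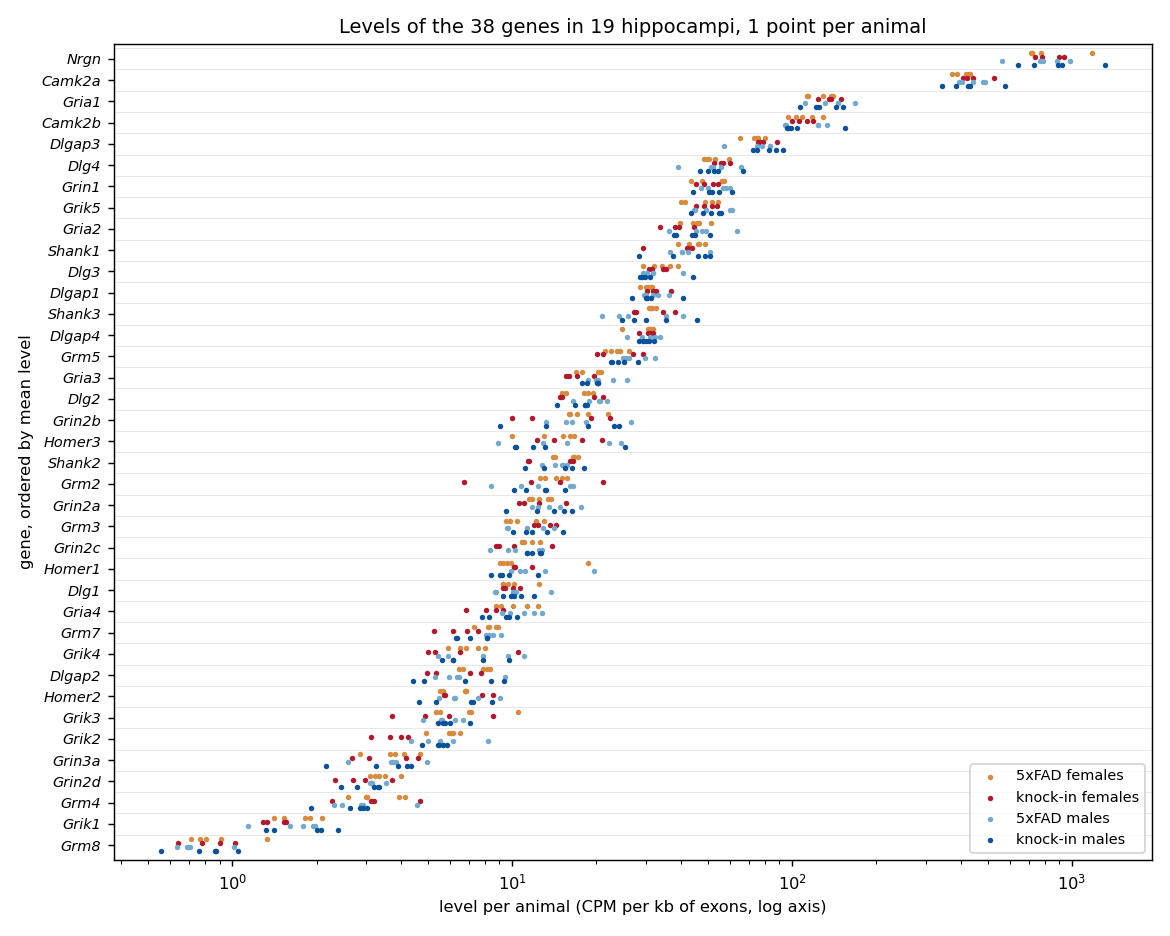
Level of each gene in CPM per kb of exons (log axis) on the horizontal axis and the genes in order of mean level on the vertical axis, with 1 point per animal coloured by group. Nrgn, Camk2a and Gria1 lead, and Grm8 is lowest at a mean of 0.83.

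The spread between animals differed by gene. Dlgap4 had the smallest ratio of highest to lowest animal, at 1.36, followed by Grin1 at 1.40. Grm2, a mainly presynaptic receptor found on mossy fibres, had the largest at 3.13 (32.9 to 103 CPM), followed by Grin2b at 2.94 (224 to 657 CPM), Homer3 at 2.84 (30.7 to 87.0 CPM) and Grik3 at 2.82 (33.4 to 94.2 CPM). Several of these genes also had wide intervals in the comparisons below.

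With both sexes together, no member of the 38 passed the threshold of an adjusted p of 0.05 (edgeR quasi-likelihood test, Benjamini-Hochberg over 18204 genes). The share of all tested genes called in this comparison was 0.0220%, so a count of 0 of 38 is at the background. An unadjusted p under 0.05 by edgeR was reached by 5 of the 38, beside 2166 of the 18204 genes. DESeq2 and limma-voom called 0.588% and 0.0110% of all tested genes, and 1 and 0 of the 38. The log2 change was below 0 for 26 and above 0 for 12, with a median of -0.05 against -0.001 over all tested genes. The 95% interval of the change lay within 1.5-fold in either direction for 37 of 38. For nearly all of these genes, therefore, a change of more than 1.5-fold lay outside the interval, the exception being Grik2 (-0.59 to -0.13).

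In females, 1 of 38 genes passed, Grik2, which was lower in knock-in animals. That is 2.63% of the genes, beside 5.56% of all tested genes called in females in either direction and 4.43% called lower. A further 2 reached only an unadjusted p under 0.05 (Gria4 and Grm7). Beside 4028 of 18204 tested genes, 3 of the 38 were under it. The log2 change was below 0 for 24 and above 0 for 14, with a median of -0.05 (all genes 0.007), and 31 intervals lay within 1.5-fold. In males, 0 of 38 passed with edgeR, DESeq2 or limma-voom, beside 0%, 0.104% and 0% of all tested genes. An unadjusted p under 0.05 was reached by 2 (again Gria4 and Grm7), beside 1187 of 18204 tested genes. The median log2 change of the 38 was -0.03 (all genes 0.01) and 34 intervals lay within 1.5-fold. Since this is bulk tissue, fewer cells of a type and less RNA per cell cannot be told apart in any of these values.

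**Figure D2:**
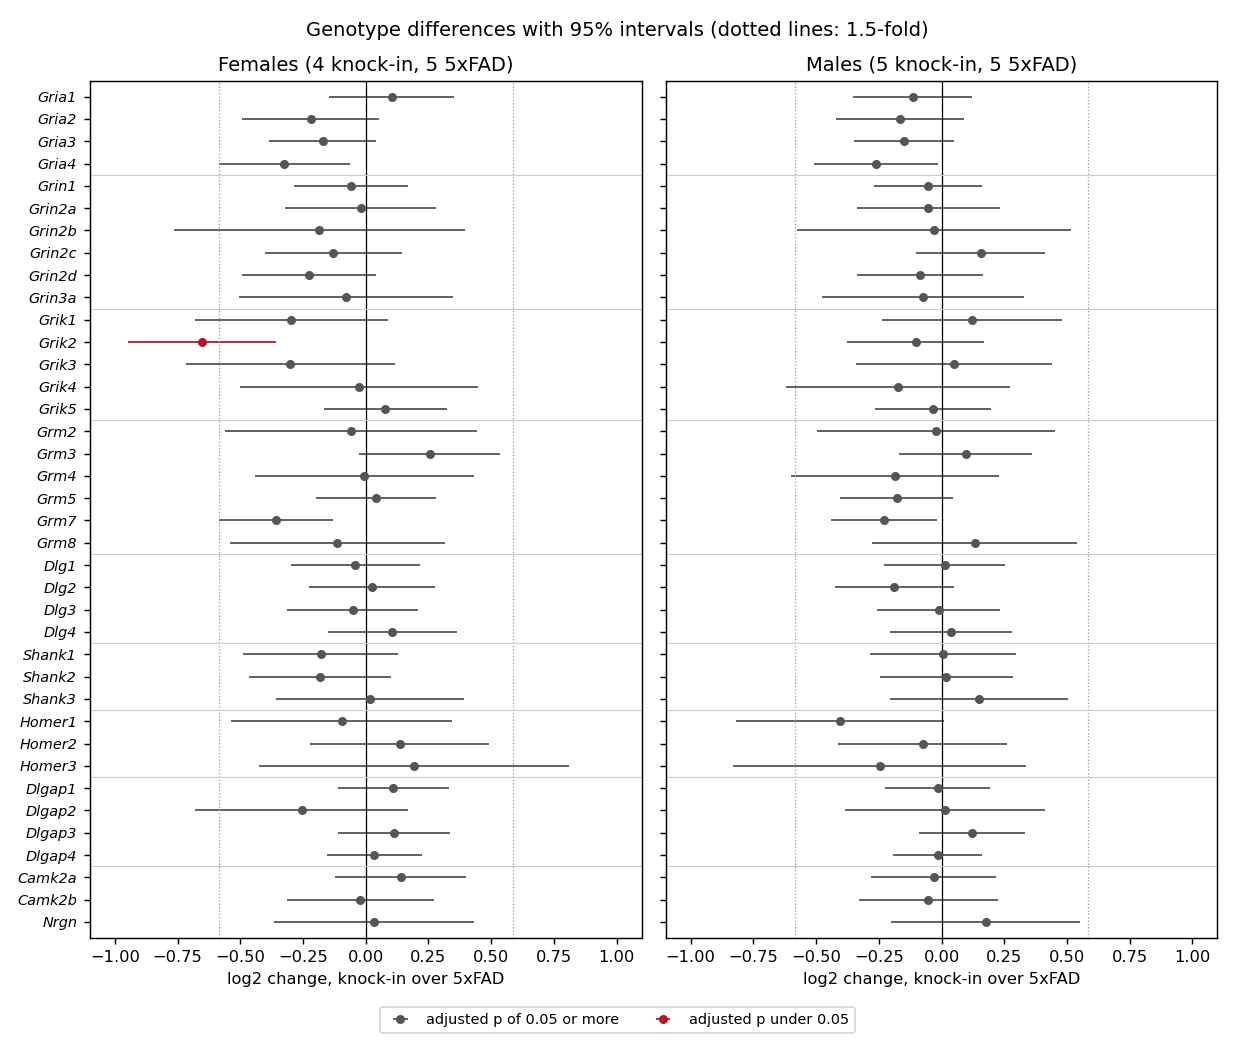
Log2 change of each gene between knock-in and 5xFAD animals in females and in males, with 95% intervals from the edgeR fit, in family order. Grik2 in females at -0.65 is the only one past the threshold; dotted lines mark 1.5-fold.

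The kainate receptor family held the one gene called by edgeR. Grik2 encodes GluK2, a principal kainate subunit that forms channels alone or with GluK4 and GluK5. Knock-in females had 48.3, 56.2, 41.3 and 53.2 CPM (49.7 ± 6.49, SD, n = 4), and 5xFAD females had 78.6, 79.8, 65.3, 81.3 and 86.0 CPM (78.2 ± 7.74, SD, n = 5). All 4 knock-in females lay below all 5 5xFAD females. The log2 change was -0.65 (SE 0.142, edgeR adjusted p = 0.0142), a level 1.57-fold lower.

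In males Grik2 did not separate by genotype. Knock-in males had 72.4, 63.1, 72.2, 75.0 and 77.4 CPM, within the range of 5xFAD males, at 109, 73.1, 81.6, 66.3 and 57.4 CPM. The log2 change in males was -0.10 (edgeR adjusted p = 0.925). The difference between the sexes in this change was -0.55, which did not pass (edgeR adjusted p = 0.146). In that test edgeR, DESeq2 and limma-voom called 0.308%, 4.21% and 0% of all tested genes, and 0 of the 38. Beside 3225 of 18204 tested genes, 1 of the 38 was at an unadjusted p under 0.05 by edgeR. Knock-in females were also lower than all 5 knock-in males, by a log2 change of -0.53 with an edgeR adjusted p of 0.0906.

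Leaving out knock-in female 2 or knock-in female 4 gave Grik2 an edgeR adjusted p of 0.0546 or 0.0838, with log2 changes of -0.73 and -0.55. No gene of any kind was called in females in those fits (0 of 18524 and 0 of 18517, with 3403 and 3027 at an unadjusted p under 0.05), against 1013 with all animals. Once the noncoding level entered the fit, the log2 change of Grik2 in females was -0.19 (edgeR adjusted p = 1.00). In that fit 0 of 18204 genes were called in females, with 316 at an unadjusted p under 0.05. The noncoding levels of the female groups did not overlap, and edgeR called 7 of the 8 noncoding genes lower in females. Genotype and noncoding level therefore cannot be told apart in females by this fit. The 4 knock-in females and 5xFAD male 10 had the 5 lowest noncoding levels of the 19 animals, and that male (6.41 log2 CPM) had the lowest Grik2 of its group (57.4 CPM). After group means were subtracted, Grik2 and the noncoding level had a Pearson r of 0.63 and a Spearman rho of 0.43 over 19 animals (permutation p = 0.03 and 0.103, adjusted p = 0.36 and 0.633 over 228 relations). The r was 0.41 without the pair of animals farthest from the median noncoding level. The part of the noncoding level in the Grik2 difference was not tested beyond these values.

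**Figure D3:**
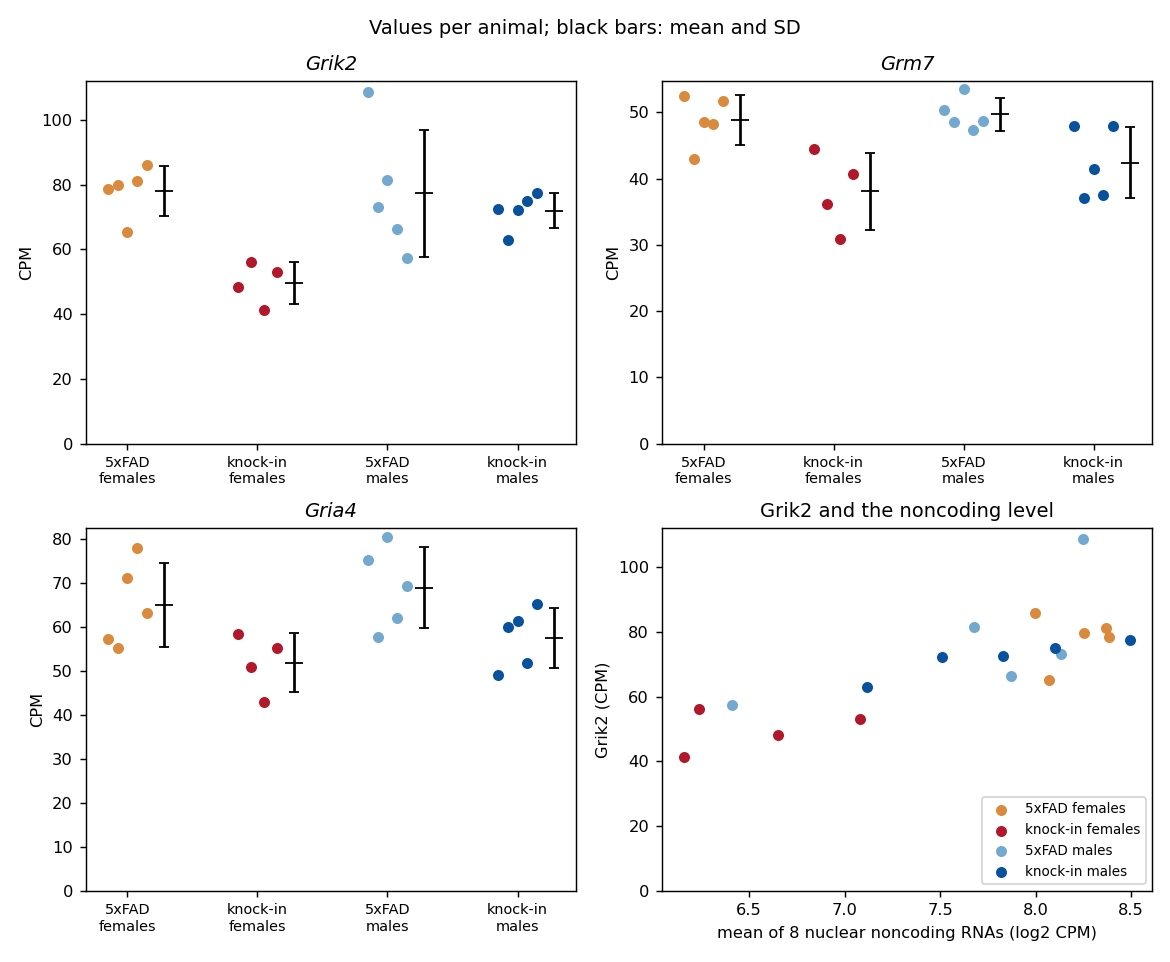
CPM per animal of Grik2, Grm7 and Gria4 in the 4 groups (points, with mean and SD beside them), and Grik2 against the mean log2 CPM of 8 nuclear noncoding RNAs. The knock-in females have 41.3 to 56.2 CPM of Grik2 and the 5xFAD females 65.3 to 86.0.

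The other kainate subunits did not pass in either sex. Grik1 and Grik3, further principal subunits, had female log2 changes of -0.30 and -0.30 (edgeR adjusted p = 0.364 and 0.399), and male changes of 0.12 and 0.05. Grik4, the high-affinity subunit enriched in CA3, had 29.8 to 62.4 CPM in knock-in females and 35.1 to 47.5 CPM in 5xFAD females, with a log2 change of -0.03. Grik5, the family's most abundant transcript per kb, had 234 to 280 CPM in knock-in females (median 260), 208 to 282 CPM in 5xFAD females (median 252), 224 to 288 CPM in knock-in males (median 266) and 231 to 314 CPM in 5xFAD males (median 254). Its groups overlapped throughout, and its female log2 change was 0.08 (edgeR adjusted p = 0.755).

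All 4 AMPA subunits lay below 0 with both sexes together, Gria1 only at -0.01, with a family median of -0.18, and none passed. Beside them, 26 of the 38 genes and 9169 of 18204 tested genes lay below 0. Gria4, a subunit known for its place in interneurons, was the lowest at -0.29 (SE 0.0857, edgeR adjusted p = 0.243). Knock-in females had 58.4, 50.9, 43.1 and 55.4 CPM of Gria4, against 57.4, 55.2, 71.3, 78.1 and 63.3 CPM in 5xFAD females. Knock-in males had 49.2, 60.1, 61.5, 51.9 and 65.4 CPM, against 75.2, 57.9, 80.7, 62.0 and 69.5 CPM in 5xFAD males. The means were lower in the knock-in group in both sexes, with overlapping animals in each. By edgeR the females differed by -0.32 (adjusted p = 0.128) and the males by -0.26 (adjusted p = 0.751) on the log2 scale.

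Gria2 had a log2 change of -0.19 with both sexes together (edgeR adjusted p = 0.408), and Gria3 one of -0.16 (edgeR adjusted p = 0.378). Gria1, the main hippocampal AMPA subunit, had 747 to 904 CPM in knock-in females (median 822), 683 to 845 CPM in 5xFAD females (median 782), 642 to 919 CPM in knock-in males (median 752) and 673 to 1016 CPM in 5xFAD males (median 881). It overlapped between genotypes in both sexes and had a log2 change of 0.10 in females and -0.01 with both together. The position of all 4 subunits below 0 with both sexes together was the same with DESeq2's size factors, with library size only, in the authors' normalized values and after adjustment for the noncoding level. All of these settings use the same 19 libraries, and the remaining settings are not given for this position. Gria1, at -0.01, was close to 0 beside the family's median SE of 0.0856 with both sexes together.

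The ratio of Gria2 to Gria1 bears on the calcium permeability of AMPA receptors. In CPM it was 0.74 ± 0.03 in knock-in females (SD, n = 4) and 0.93 ± 0.10 in 5xFAD females (SD, n = 5), and the highest knock-in value of 0.77 lay below the lowest 5xFAD value of 0.81. The log2 ratio differed by -0.33 (two-sided exact permutation p = 0.0159, adjusted p = 0.0952 over 6 ratio tests; the smallest p these groups allow is 0.00794). In males the ratio was 0.86 ± 0.06 in knock-in and 0.91 ± 0.24 in 5xFAD animals (SD, n = 5 each), with an exact permutation p of 0.841. In the authors' normalized values the female difference was -0.53 with an exact permutation p of 0.0556. The remaining ratios, Grin2a to Grin2b and Camk2a to Camk2b, had exact permutation p-values of 0.222 to 0.952 in the 2 sexes.

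No NMDA receptor subunit passed in any comparison. Grin1, present in every NMDA receptor, had 439, 505, 471 and 527 CPM in knock-in females and 546, 423, 545, 461 and 555 CPM in 5xFAD females. Males had 428 to 593 CPM of Grin1 in the knock-in group (median 500) and 458 to 583 CPM in the 5xFAD group (median 549). The genotypes overlapped, and the log2 change with both sexes together was -0.06. The subunit with the lowest p was Grin2d, a subunit of early development and interneurons, at 24.8, 18.0, 15.6 and 19.8 CPM in knock-in females against 22.2, 23.4, 21.5, 20.7 and 26.6 CPM in 5xFAD females. The females differed by -0.23 (edgeR adjusted p = 0.311) and the males by -0.09 on the log2 scale.

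Grin2a and Grin2b, the main regulatory subunits of the adult forebrain, had female log2 changes of -0.02 and -0.19 and male changes of -0.05 and -0.03. The interval of Grin2b in females ran from -0.77 to 0.40. The ratio of Grin2a to Grin2b was 0.62 ± 0.20 in knock-in females (SD, n = 4) and 0.51 ± 0.09 in 5xFAD females (SD, n = 5). Grin2c and Grin3a had changes of -0.13 and -0.08 in females.

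Among metabotropic receptors, Grm7, a presynaptic receptor of low glutamate affinity, came closest to the threshold. Knock-in females had 44.5, 36.2, 30.9 and 40.7 CPM, and 5xFAD females had 52.6, 43.0, 48.5, 48.2 and 51.7 CPM, so that 3 of 4 knock-in females lay below all 5xFAD females. Knock-in males had 47.9, 37.1, 41.5, 37.5 and 47.9 CPM, and 5xFAD males had 50.3, 48.5, 53.6, 47.4 and 48.6 CPM, with 3 of 5 knock-in males below all 5xFAD males. Its log2 change was -0.36 in females (SE 0.109, adjusted p = 0.0572 by edgeR), -0.23 in males (adjusted p = 0.74) and -0.29 with both sexes together (SE 0.0754, edgeR adjusted p = 0.181). DESeq2 called it with both sexes together (-0.29, adjusted p = 0.0397) and in females (-0.35, adjusted p = 0.0325). DESeq2 called 0.588% and 9.94% of all tested genes in these comparisons, more than edgeR did. Grm7 is 1 of 12 of the 38 genes that overlap a gene on the opposite strand (with Grin1, Grin2b, Grin2c, Grin2d, Grm2, Shank1, Shank3, Homer2, Homer3, Dlgap1 and Dlgap4). Strand use in counting is not given in the sources used here, so reads of such partners cannot be told apart.

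Grm5, the group I receptor that Homer binds and the family's most abundant transcript per kb, had 205 to 300 CPM in knock-in females (median 247), 220 to 268 CPM in 5xFAD females (median 243), 232 to 288 CPM in knock-in males (median 244) and 254 to 331 CPM in 5xFAD males (median 268). Its log2 change was 0.04 in females and -0.18 in males, neither of which passed. Grm3, which astrocytes also express, had the highest change of the family with both sexes together at 0.17 (edgeR adjusted p = 0.478). Grm2, Grm4 and Grm8 had changes of -0.04, -0.10 and 0.02.

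No Dlg scaffold passed in any comparison. Dlg4 had 698, 751, 739 and 793 CPM in knock-in females, 788, 660, 667, 643 and 705 CPM in 5xFAD females, 619 to 885 CPM in knock-in males (median 699) and 517 to 870 CPM in 5xFAD males (median 691). The groups overlapped, and the log2 change with both sexes together was 0.07, with an interval from -0.11 to 0.24. Dlg2 (PSD-93), with the family's lowest p with both sexes together, had 320, 344, 246 and 241 CPM in knock-in females and 253, 245, 295, 317 and 303 CPM in 5xFAD females. In males it had 235 to 300 CPM in the knock-in group (median 296) and 269 to 356 CPM in the 5xFAD group (median 331). Its log2 change was 0.03 in females and -0.19 in males. Dlg1 (SAP97) and Dlg3 (SAP102) had changes of -0.01 and -0.03 with both sexes together.

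The Shank scaffolds had log2 changes of -0.18 (Shank1), -0.18 (Shank2) and 0.02 (Shank3) in females and of 0.005 to 0.15 in males, and none passed. Shank1, the most abundant of them per kb, had 443, 460, 307 and 445 CPM in knock-in females, in which only the animal at 307 lay below the 5xFAD range of 412 to 512 CPM. Shank2 had 122 to 177 CPM in knock-in females (median 149) and 151 to 184 CPM in 5xFAD females (median 178), again with overlap.

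The Dlgap scaffolds likewise did not pass. Dlgap3, the most abundant of them per kb, had 354, 343, 348 and 398 CPM in knock-in females and 362, 295, 330, 338 and 343 CPM in 5xFAD females. Its males had 327 to 418 CPM in the knock-in group (median 373) and 258 to 377 CPM in the 5xFAD group (median 352). The log2 change was 0.11 in females and 0.12 in males. Dlgap2 had 47.4, 43.3, 30.4 and 32.9 CPM in knock-in females and 39.8 to 51.0 CPM in 5xFAD females, with a log2 change of -0.26 (edgeR adjusted p = 0.493).

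Homer1 had single animals far above the rest of their groups. In 5xFAD females it was at 119, 111, 114, 224 and 109 CPM, and in 5xFAD males at 133, 127, 236, 119 and 157 CPM. Knock-in females had 122, 141, 123 and 121 CPM, and knock-in males 148, 116, 100, 108 and 110 CPM. No knock-in animal was above 148 CPM. The log2 change was -0.10 in females, -0.40 in males (edgeR adjusted p = 0.755) and -0.26 with both sexes together (edgeR adjusted p = 0.493), none of which passed, and the female value was 0.20 without 5xFAD female 4. Homer1 makes a long scaffold form and a short form, Homer1a, that neuronal activity induces, and a gene total does not separate them.

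Homer3, the most abundant Homer gene per kb, had 71.8, 48.4, 61.1 and 42.0 CPM in knock-in females, 34.4 to 57.4 CPM in 5xFAD females (median 52.3), 35.2 to 87.0 CPM in knock-in males (median 40.9) and 30.7 to 83.9 CPM in 5xFAD males (median 53.8). Its interval in females ran from -0.42 to 0.81, the highest upper bound of the 38 genes in females. Homer2 had 71.9 to 108 CPM in knock-in females (median 85.7) and 69.6 to 86.5 CPM in 5xFAD females (median 85.6), with a log2 change of 0.13.

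The kinase and its regulator did not differ beyond the spread of the animals. Camk2a had 3146, 3930, 3312 and 3037 CPM in knock-in females and 3203, 2898, 3132, 2782 and 3230 CPM in 5xFAD females. In males it had 2572 to 4303 CPM in the knock-in group (median 3178) and 2936 to 3638 CPM in the 5xFAD group (median 3315). The log2 changes were 0.14 and -0.03. Nrgn had 1137, 1073, 1304 and 1366 CPM in knock-in females and 1716, 1122, 1034, 1047 and 1045 CPM in 5xFAD females, with a log2 change of 0.03, and 0.18 in males. Camk2b had changes of -0.02 and -0.05.

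Females and males were compared within each genotype. In 5xFAD animals edgeR, DESeq2 and limma-voom called 0 of 38 genes, beside 0.0385%, 0.0879% and 0.0330% of all tested genes. Beside 2022 of 18204 tested genes, 1 of the 38 reached an unadjusted p under 0.05 by edgeR. That was Grm5, at 220 to 268 CPM in females and 254 to 331 CPM in males, a log2 change of -0.23 for female over male (edgeR adjusted p = 0.446). In knock-in animals 0 of 38 passed (0.0494% of all tested genes), and 1 reached an unadjusted p under 0.05, beside 2615 of 18204 genes. DESeq2 called 1 and limma-voom 0, beside 2.80% and 0.0439% of all tested genes. The gene under 0.05 and the gene that DESeq2 called were both Grik2.

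Proteins that bind or act on these receptors were described as 5 lists with 89 measured genes outside the 38. By edgeR 2 of the 89 passed in females and 0 in males or with both sexes together. An unadjusted p under 0.05 was reached by 18 in females, 4 in males and 9 with both sexes together. Over all 18204 tested genes it was reached by 4028, 1187 and 2166. The 2 that passed are 2.25% of the list, below the 5.56% of all genes. Shisa7, an AMPA receptor auxiliary protein, fell by 0.47 on the log2 scale in females (SE 0.127, edgeR adjusted p = 0.0325). Grip2, a PDZ protein that binds AMPA receptor tails, fell by 0.78 on the log2 scale (SE 0.178, edgeR adjusted p = 0.0178). Like every other call in females, both were lost without knock-in female 2 or without knock-in female 4. Of 18 AMPA auxiliary proteins 1 was called in females, with a median of 0.03, and Cacng4, a TARP, was at 0.41 (edgeR adjusted p = 0.0606). Of 11 kainate, NMDA and delta receptor partners 0 were called and 0 reached an unadjusted p under 0.05, and the kainate auxiliary gene Neto2 was at 0.22. Of 18 adhesion proteins 0 were called, with 2 at an unadjusted p under 0.05, including Ptprd, a partner of several synaptic adhesion proteins, at -0.48 (edgeR adjusted p = 0.0907). Of 34 postsynaptic enzymes and regulators 1 was called (Grip2). Of 8 genes for glutamate uptake and the glutamine cycle 0 were called and 4 reached an unadjusted p under 0.05, among them the astrocyte transporter Slc1a3 at 0.31 (edgeR adjusted p = 0.0612).

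Cell markers were read beside these values, since the share of each cell type in the tissue sets part of every value. Pan-neuronal markers had a median change of 0.03 in females and -0.06 in males, with 0 of 12 called in either and 3 at an unadjusted p under 0.05 in males. Their mean level was 8.51 to 8.72 log2 CPM in knock-in females and 8.37 to 8.70 in 5xFAD females. Astrocyte markers were higher by a median of 0.31 in females, with 2 of 10 called, Gfap and Aqp4, and their levels did not overlap, at 7.78 to 7.91 in knock-in females and 7.44 to 7.57 in 5xFAD females. Microglia markers had a median of 0.41 in females, with 1 of 12 called (Cd68), and levels of 5.80 to 6.35 against 5.53 to 5.94. In males 0 markers of either type were called by edgeR, with 2 of 10 and 9 of 12 at an unadjusted p under 0.05 and medians of 0.16 and 0.47. Inhibitory neuron markers had 4 of 8 above 0 and a median of -0.02 in females, with 1 called, Reln at -0.48 (edgeR adjusted p = 0.0382), while Gad2 was at 0.11 and Slc32a1 at 0.09. All 8 oligodendrocyte, 8 endothelial, 8 dentate granule cell and 8 choroid plexus markers were above 0 in females, at medians of 0.29, 0.21, 0.25 and 0.98. None of these was called by edgeR, and 3, 3, 0 and 0 reached an unadjusted p under 0.05. Pyramidal cell, oligodendrocyte precursor and thalamic and cortical markers were mixed, with 8 of 10, 4 of 6 and 5 of 10 above 0. Their medians in females were 0.11, 0.23 and 0.02, with 0 called and 0, 2 and 1 at an unadjusted p under 0.05. Of all tested genes edgeR called 5.56% in females and 0% in males. An unadjusted p under 0.05 was reached by 4028 and 1187 of the 18204. The part of the cell markers in the values of the 38 genes was not tested.

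Animals of one group differed from each other in patterns that several of the 38 genes shared. After each group's mean was subtracted from log2 CPM, 703 pairs of genes had a median r of 0.11 over 19 animals, and 11 pairs had an r above 0.8. The highest were Dlg2 with Shank2 (0.92), Dlg4 with Nrgn (0.89), Grin2b with Dlgap2 (0.87), Dlg4 with Dlgap3 (0.86) and Grik4 with Homer3 (0.84). The lowest were Dlg1 with Homer3 (-0.83) and Gria1 with Dlg1 (-0.79). These are descriptions over genes that share libraries and depth, and the authors' normalized values gave 0.58 for Dlg2 with Shank2 and 0.68 for Dlg4 with Nrgn, but 0.91 for Dlg4 with Dlgap3 and 0.91 for Grin2b with Homer2 (0.82 in the counts). In those values 19 pairs had an r above 0.8.

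**Figure D4:**
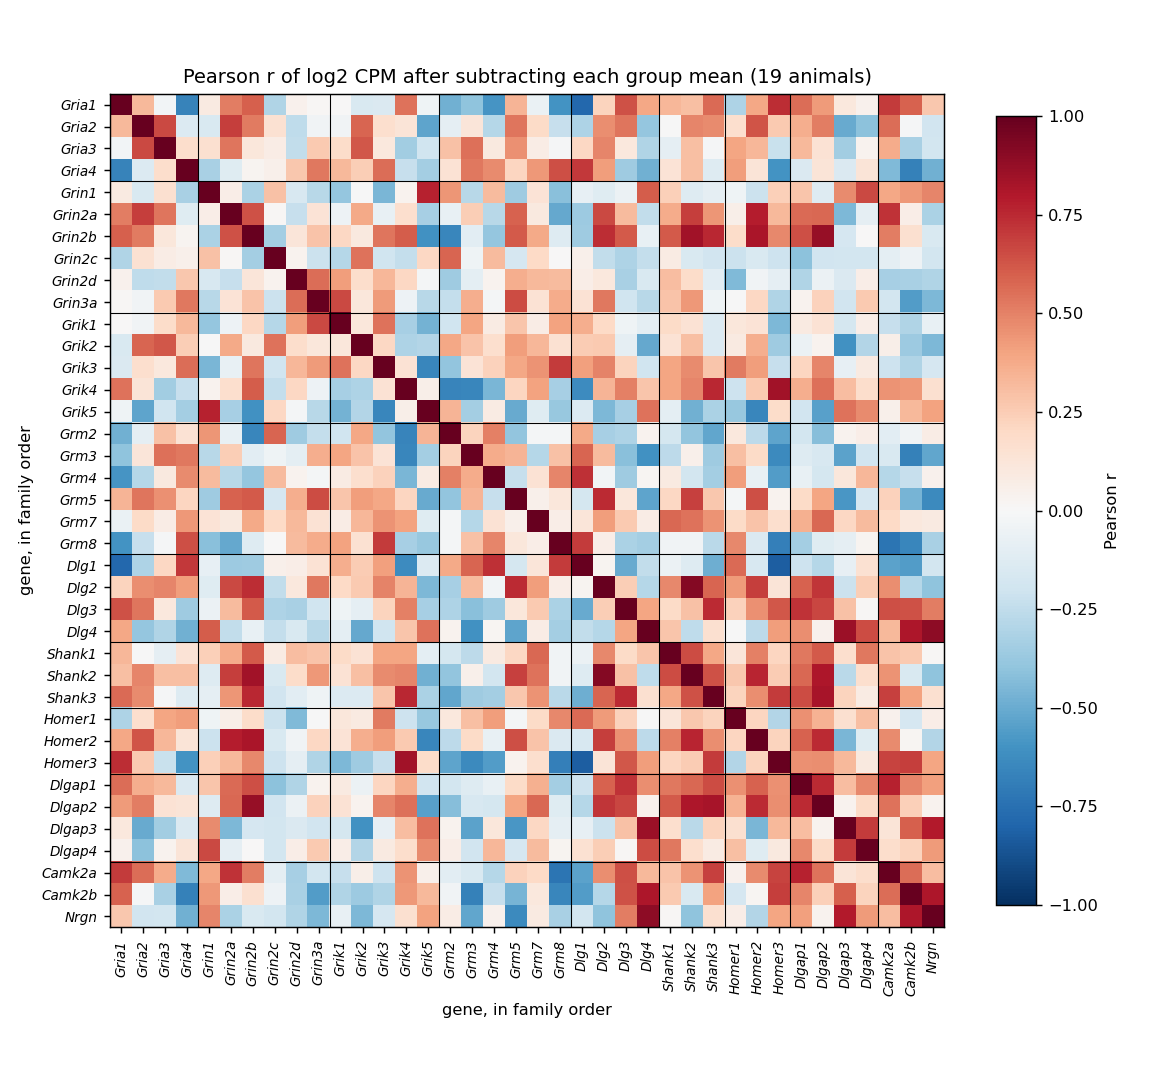
Pearson r over 19 animals between each pair of the 38 genes, after group means were subtracted from log2 CPM, with lines between families. Dlg4, Dlgap3, Camk2b and Nrgn form one red patch, Grin2b, Dlg2, Shank2, Homer2 and Dlgap2 another, and Dlg1 is blue against Gria1 (-0.79) and Homer3 (-0.83).

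The same deviations were set against the levels of 6 marker lists, which gives 228 relations, and 4 passed an adjusted permutation p of 0.05 for Pearson's r while 0 passed for both r and Spearman's rho. Dlgap4 and Dlgap3 followed the pan-neuronal markers, with r of 0.82 and 0.79 (permutation p = 0.00076 and 0.00026, adjusted p = 0.0433 and 0.0281) and rho of 0.65 and 0.76 (permutation p = 0.00666 and 0.00072, adjusted p = 0.253 and 0.104). Without the pair of animals farthest from the median level, r was 0.65 and 0.71, and in the authors' normalized values it was 0.21 and 0.32. Dlg1 followed markers of the neighbouring thalamus and cortex (r = 0.82, permutation p = 0.00013, adjusted p = 0.0281, rho = 0.73 with permutation p = 0.00173 and adjusted p = 0.104, r = 0.72 without the farthest pair), and Homer3 ran against them (r = -0.72, permutation p = 0.00037, adjusted p = 0.0281, rho = -0.73 with permutation p = 0.00143 and adjusted p = 0.104, r = -0.60 without the farthest pair). How much neighbouring tissue each dissection carried was not tested.

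A pair of further lists was added after the data were seen and carries no test. Grik4 and Homer3 had r of 0.88 and 0.86 with 7 genes of CA3 pyramidal cells (rho 0.84 and 0.80), and 0.83 and 0.82 without the animals farthest from the median level. Grik4 is known for its high level in CA3. Homer1 had an r of 0.75 and a rho of 0.77 with 11 immediate early genes such as Fos, Egr1 and Arc, and 0.70 without the farthest pair. The animals with the most Homer1, at 224 and 236 CPM, had immediate early gene levels of 5.92 and 6.02 log2 CPM, the highest of the 19, and 5xFAD female 1 had a level of 5.91 with Homer1 at 119 CPM. The same animals also had thalamic and cortical marker levels of 5.02 and 5.20, among the 3 highest.

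**Figure D5:**
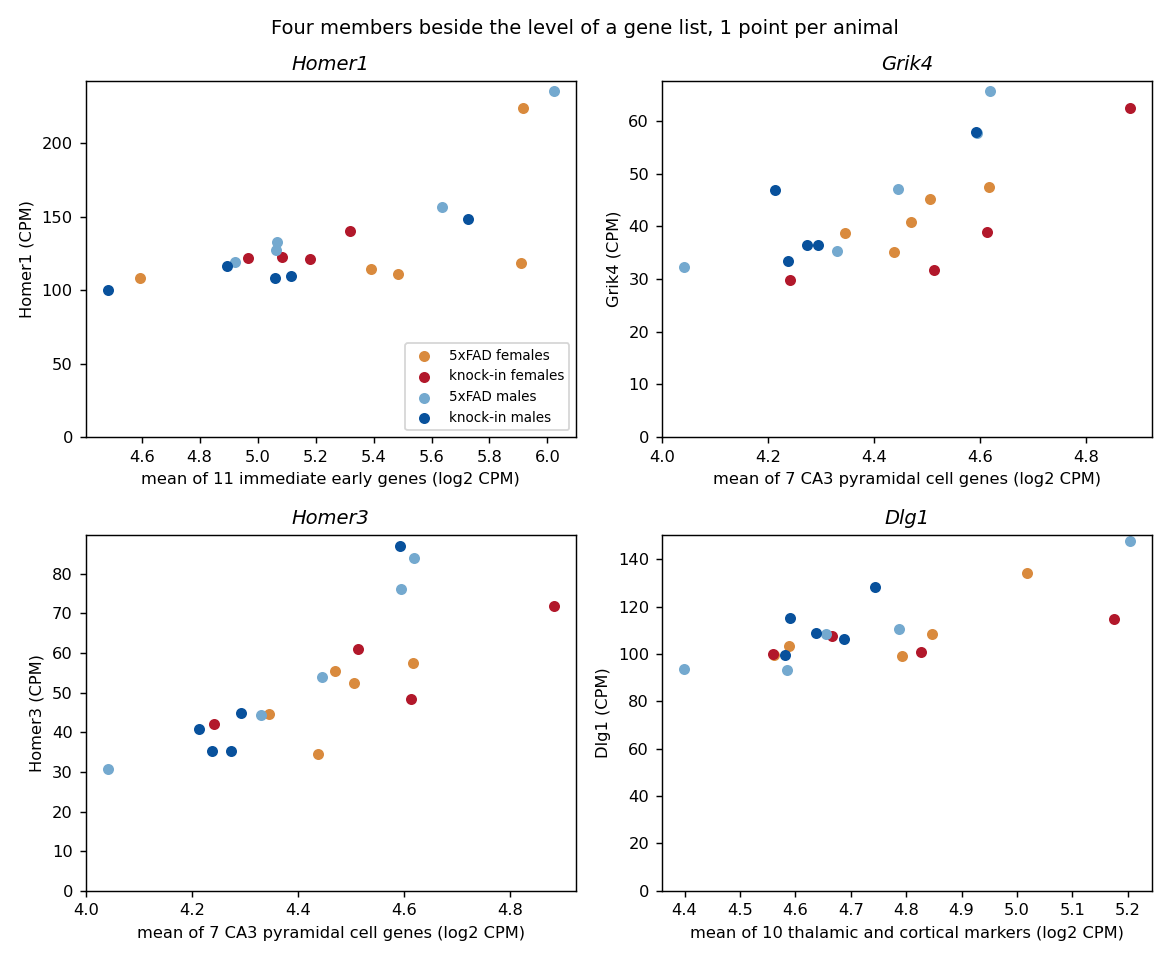
CPM of Homer1, Grik4, Homer3 and Dlg1 in each animal against the mean log2 CPM of a gene list (immediate early, CA3 pyramidal cell, or thalamic and cortical genes), coloured by group. The animals at 224 and 236 CPM of Homer1 are a 5xFAD female and a 5xFAD male, and the animals with the most Grik4 and Homer3 have high levels of the CA3 genes.

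Values of these genes also depend on which deposited table is read. In the authors' normalized table the factor applied to a gene in a library varied with the gene's GC content. The slope was positive in 7 of 19 libraries (3 knock-in and 4 5xFAD) and negative in the rest. Those with a positive slope were knock-in female 1, knock-in males 6 and 10, 5xFAD females 1, 2 and 4, and 5xFAD male 10. The mean log2 factor of these libraries minus that of the others ran from -0.50 for Grm5 (42.5% GC) to 0.50 for Dlgap3 (63.9% GC). It was -0.30 for Grik2 (37.9% GC) and -0.42 for Gria2 (36.8% GC). The part of GC content in the female differences of these genes was not tested. The main tests used the counts without these factors, and tests on the normalized values are named as such.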

How the data were processed

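RNA of the left hippocampus was sequenced from 19 mice in 4 groups, 1 library each, per the labels. The authors deposited estimated counts per gene as whole numbers; these expected counts are the input of the main tests. They also deposited normalized values, a signal in which counts are divided by factors specific to gene and library, used only in alternatives, and variance-stabilised log2 values, which entered no test. The submitters' processing notes name FastQC, Salmon, DESeq2, Seurat and build mm39, with no versions or roles. The 38 genes and all lists were chosen with earlier results of these data known. Genes past edgeR's filterByExpr (18204 of 20655) were tested with edgeR 4.0.16 (TMM, robust quasi-likelihood F-test, R 4.3.3) and Benjamini-Hochberg adjustment over all of them at 0.05. The fit for both sexes was additive in genotype and sex, and the others used the 4 group means. Named genes were those past the threshold in any comparison and, in each family, the highest per kb and the lowest p; partner lists are described by up to 3 genes of lowest p in females. Alternatives were DESeq2 1.42.0, limma-voom (limma 3.58.1), scaling by DESeq2's size factors or by library size only, testing every gene, a filter of at least 1 CPM in 4 libraries, limma on log2(normalized value + 1), a replicate block, the noncoding level as a covariate, and leaving out each library. Permutation tests used scipy 1.17.1, with 100000 permutations within groups for correlations. Log2 CPM used a prior count of 2. The tests were also run on simulated counts, drawn separately for each gene without variation shared between the genes of a library. That run cannot show how the tests behave where genes vary together. Gene names, exon lengths and GC content came from a GRCm38 annotation and promoters from RefSeq GRCm38.p6, whose coordinates are not those of the authors' build. At the lowest count of any of the 38 genes, 114, counting alone gives a relative error of 9.37%.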

Additional observations from a re-analysis of the deposited data

Results flagged for a closer look

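In 152 combinations of gene and group, 12 had 1 animal set apart from the others of its group by Dixon's test; chance flags about 1 in 20 groups. Homer1 was high in 5xFAD female 4 at 224 CPM and in knock-in female 2 at 141 CPM. Knock-in male 6 was set apart for 3 genes, with Dlg3 at 258 CPM, Homer3 at 87.0 CPM and Camk2b at 1414 CPM. In 5xFAD males, Dlg3 was high at 238 CPM in male 10, Grin2d at 23.5 CPM in male 9 and Grm8 at 10.01 CPM in male 8, while Dlgap3 was low at 258 CPM in male 6. In females, Nrgn was high at 1716 CPM in 5xFAD female 1, Dlgap4 was low at 209 CPM in 5xFAD female 2 and Shank1 was low at 307 CPM in knock-in female 4.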

How the results depend on the processing

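Of 643 values of single genes under 9 settings and 19 fits without a library, 602 kept their direction and their side of the threshold, 4 lost the call, 11 gained it and 26 changed sign, all of these in females and none called. The count of called genes was 1 in both sexes together and 2 in females with DESeq2, and 1 between knock-in females and males with DESeq2, which called 0.588%, 9.94% and 2.80% of all tested genes there. It was 2 in females with library size only and with the authors' normalized values, Grm7 being the second, and 0 with the noncoding covariate; the causes were not tested. Without 1 library it ranged from 0 to 2 in females, from 0 to 1 for the interaction and from 0 to 1 between knock-in sexes. Grm7 in females was called without knock-in female 1 (-0.41, edgeR adjusted p = 0.0424), knock-in male 7 (-0.36, 0.0487) or 5xFAD female 2 (-0.41, 0.0492). The Grik2 interaction was called without 5xFAD male 6 (-0.70, 0.0430), and Grik2 between knock-in sexes without knock-in male 7 (-0.58, 0.0492) or 5xFAD male 10 (-0.50, 0.0456). The noncoding level did not overlap between the female groups, so a fit with it cannot tell it apart from genotype in females. With the noncoding covariate the female changes were -0.0375 for Gria1, 0.0101 for Grin1, -0.0362 for Dlg2, -0.0416 for Dlg4, 0.11 for Shank1, -0.0193 for Homer3, -0.06 for Dlgap3 and -0.19 for Nrgn. With library size only they were -0.0208 for Grik5, -0.056 for Grm5, -0.0718 for Dlg2 and -0.0664 for Nrgn, beside a median of -0.09 over all genes. In the authors' normalized values they were 0.073 for Grin1 and -0.11 for Grm5. Without 1 library, Grin1 ranged from -0.13 to 0.0192, Grm5 from -0.0689 to 0.13, Dlg2 from -0.0826 to 0.12, Homer1 from -0.18 to 0.20 and Nrgn from -0.0234 to 0.18.

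The labels' replicate numbers did not pair the animals: same-numbered deviations correlated at -0.203 to 0.119, and 1 of 9 was highest with its own number. With the replicate block 0 of the 38 genes and 0 of all 18204 were called in females (3201 at an unadjusted p under 0.05), and Grik2 was at -0.72 (edgeR adjusted p = 0.0979). The sex comparisons have no such fit, since females and males share no numbers.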
